A study of Homo sapiens with 6 samples.

Results

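The 10 genes described here are MYC, the JUN family (JUN, JUNB and JUND), the FOS family members FOS, FOSL1 and FOSL2, and ATF3, EGR1 and IER2. All code for proteins of the growth response, and they were taken by name from 20162 protein-coding genes, by a rule that uses no measured value but was set with earlier results of these data known. Their data were the 20-bp bins of the deposited CELF1 peak lists whose centre lay in an exon of one of them on the transcript strand. There were 459 such bins of 816781 in SK-Mel-103, 254 of 780750 in UACC-62 replicate 1 and 248 of 862731 in UACC-62 replicate 3. In all, 598 bins of these genes stood in at least 1 list, of 1589987 bins in the series, and 117 stood in all 3.

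Immediate early genes are transcribed within minutes of a growth stimulus without new protein synthesis, and most of their mRNAs are destroyed soon afterwards. JUN and FOS proteins pair through leucine zippers into the AP-1 transcription factor, whereas MYC pairs with MAX and drives growth genes. The rapid decay of these mRNAs depends largely on AU-rich elements, built on the pentamer AUUUA, and on GU-rich elements (GREs) in their 3′ UTRs. CELF1, also called CUGBP1, is an RNA-binding protein known for binding GREs and for recruiting the enzymes that shorten poly(A) tails.

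CELF1 was immunoprecipitated with an anti-CUGBP1 antibody from lysates of cells fixed with formaldehyde, and RNA of the precipitate (IP) and of the whole lysate (input) was sequenced after ribosomal RNA had been removed. SK-Mel-103 and UACC-62 are established human melanoma lines, grown here without any treatment that differed between the groups. The 6 samples comprised 1 IP sample of SK-Mel-103 (replicate 1), 2 of UACC-62 (replicates 1 and 3) and the input of each. The labels do not say whether the UACC-62 replicates came from separate cultures, so their spread may be technical. SK-Mel-103 had no replicate, a difference between the lines therefore had no test, and an IP with an unrelated antibody was not analysed here.

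The listed bins held 10958459 to 14436573 IP reads and 8453517 to 10161917 input reads per sample. Each held at least 4 IP reads, and a bin could be listed even where it had more input than IP reads, as 20.2% to 30.3% of them did. Reads outside the listed bins are unknown, so that each value applies to the listed part of a transcript only, and an mRNA with few reads had few bins that could pass. Less RNA per cell and fewer cells with that RNA cannot be told apart in such lysates. Of 8 melanocytic markers, MITF, SOX10 and MLANA had bins in all 3 samples. MITF had 18 input reads in SK-Mel-103 against 6036 and 5000 in UACC-62, MLANA 18 against 826 and 926, and SOX10 864 against 2115 and 1080. PMEL and TYRP1 had none in any, and TYR, DCT and S100B had bins in UACC-62 only. AXL, a receptor of dedifferentiated melanoma, had 8694 input reads in SK-Mel-103 against 11 and 3 in UACC-62, and the keratinocyte genes KRT5 and KRT14 had none in any sample. The blood gene PTPRC had no listed bin in SK-Mel-103, but 25 IP over 3 input reads and 8 over 0 in UACC-62 replicates 1 and 3. CELF1's own mRNA had a log2 IP over input of 2.63, 3.34 and 3.26 in SK-Mel-103, UACC-62 replicate 1 and UACC-62 replicate 3, the order in which 3 values are given throughout.

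The sequences below are 20-nt bins with 5 nt on either side. They are the bins of JUND, IER2, JUN and FOSL1 with the most IP reads summed over the 3 samples (the strongest), the second of JUND and IER2, the coding bin of JUND with the most IP reads in SK-Mel-103, and 1 IER2 bin, the fourth by IP reads, that was picked for its GU-rich sequence. They are read from GRCh37 as RNA, 5′ to 3′ on the transcript strand, and capitals mark AUUUA and stretches of at least 6 nt made of G and U alone that hold both letters. The places follow in the order of the sequences. JUND was shown at chr19:18390556-18390585, chr19:18390596-18390625 and chr19:18391296-18391325 (minus strand). IER2 was shown at chr19:13265656-13265685 (strongest), chr19:13265136-13265165 (second) and chr19:13264996-13265025 (GU-rich), all on the plus strand. JUN was shown at chr1:59247076-59247105 and FOSL1 at chr11:65659716-65659745 (both minus strand).
JUND 3′ UTR, strongest bin: aagucucguuacgccagcucggcucuccgc
JUND 3′ UTR, second bin: GUUUGUaauccUUGGUUcgcccGGUUUUcu
JUND coding region, strongest bin of SK-Mel-103 there: cucaagcagaaaguccucagccacgucaac
IER2 3′ UTR, strongest bin: aacuccgucuaccuggcGUUUUGUUagaaa
IER2 3′ UTR, second bin: uuccaggcacuccccuucccccuccgcuga
IER2 3′ UTR, GU-rich bin: UUGGGUGUUGUGUUUUUUGUUUUGUUUGUU
JUN 3′ UTR, strongest bin: auuuggagcacucugaguuuaccauuugua
FOSL1 3′ UTR, strongest bin: agagaguauuuuuauacaaaccuaccaaaa
The strongest JUND bin, the JUND coding bin, the second IER2 bin and the JUN and FOSL1 bins held no marked stretch. The IER2 bin picked for its sequence was GU-rich from end to end.

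JUND and IER2 mRNAs were recovered with CELF1 far above their input in every sample, JUNB was above it in every sample with few reads, and FOSL1 and MYC were below it in every sample. For FOSL1 in UACC-62 replicate 3 and MYC in SK-Mel-103 the distance from 0 was within counting error, and MYC there lay above 0 without scaling by the column totals (log2 0.21). A peak was defined, after the study's methods, as a bin of over 30 IP reads whose p-value was below 0.05, and it was called common when the same bin passed in all 3 samples. Only JUND, with 9 common peaks, and IER2, with 8, had any, that is 2 of the 10 genes, where 8.74% of all protein-coding genes had one. Listed bins in all 3 samples were found for 8 of the 10, against 51.1% of all genes, the exceptions being FOS and ATF3, and of genes with bins in all 3 samples 17.1% had a common peak. The enrichment of a gene, that is the log2 of its IP over its input reads, each divided by the total of its column and with 1 read added, was above 0 in all 3 samples for 4 of these 8 genes (JUND, IER2, JUNB and FOSL2), where 31.7% of such genes were. It was below 0 in all 3 for 2 of 8 (FOSL1 and MYC), against 43.1% of such genes. The median of the mean log2 of the 3 samples was 0.71 over the 8 genes and −0.18 over all genes with bins in all 3 samples.

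**Figure D1:**
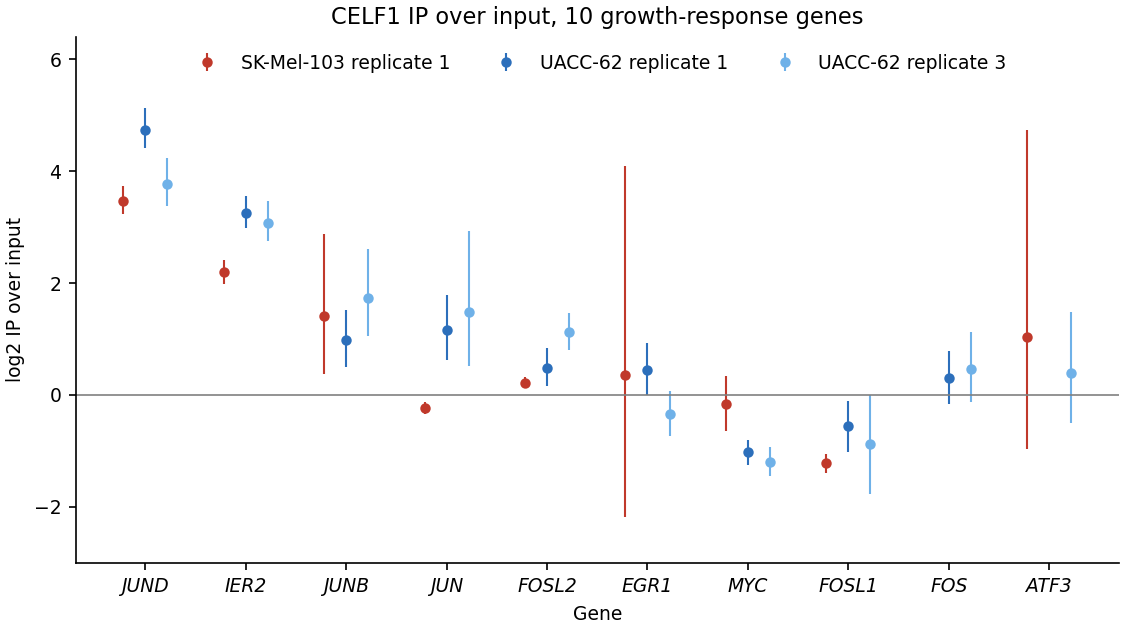
Log2 IP over input of each gene in the 3 IP samples, with points for the samples and bars for exact 95% intervals of counting error. JUND and IER2 lie highest, between 2.19 and 4.73, FOSL1 and MYC lie below 0 in all 3 samples under this scaling (MYC in SK-Mel-103 is at 0.21 without it), and the value of JUN in SK-Mel-103 (−0.23) lies apart from both UACC-62 values.

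JUND, the JUN family member that is expressed most steadily and slows growth in many cells, had the highest value of the 10 genes in every sample. Its 1929 nt of exons held 2110, 2045 and 1103 IP reads over 146, 68 and 49 input reads. Its enrichment on the log2 scale was 3.47 for SK-Mel-103 (95% interval 3.24 to 3.73, exact, here as elsewhere counting error only) and averaged 4.25 ± 0.68 over the UACC-62 replicates (SD, n = 2), and SK-Mel-103 lay below both replicates. The value exceeded that of 99.7%, 99.9% and 99.6% of the 10306 protein-coding genes with bins in all 3 samples.

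The reads of JUND came from its 3′ UTR and from its coding region alike. Its 3′ UTR bins held 1290, 1207 and 576 IP reads over 88, 41 and 28 input reads, and its coding bins held 820, 838 and 527 over 58, 27 and 21. Both regions were enriched alike, with log2 values of 3.48, 4.69 and 3.62 in the 3′ UTR and of 3.42, 4.75 and 3.89 in the coding region. Of the 9 common peaks 5 lay in the 3′ UTR and 4 in the coding region. The strongest bin, 66 nt from the 3′ end of the gene, held 246, 223 and 127 IP reads over 21, 10 and 6 input reads, and lay 180 nt from the nearest GRE with up to 2 mismatches. The second bin, which carries GU stretches, held 165, 140 and 49 IP reads over 7, 7 and 3 input reads.

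The IP reads of JUND rose and fell along the transcript in the same places in the 3 samples. Over the bins that 2 samples shared, Pearson's r of the IP reads was 0.97 between SK-Mel-103 and UACC-62 replicate 1 (54 bins), 0.93 between SK-Mel-103 and UACC-62 replicate 3 (52 bins) and 0.93 between the UACC-62 replicates (56 bins). The bins are neighbours on 1 transcript, share its composition and fragment ends, and are not independent. Within a sample, r between the IP and the input reads of JUND bins was 0.83, 0.82 and 0.72.

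IER2, a small nuclear immediate early protein, came second in every sample. It had 1241, 1186 and 959 IP reads over 209, 111 and 69 input reads. The log2 enrichment came to 2.19 for SK-Mel-103 (1.98 to 2.41) and to 3.16 ± 0.12 over the UACC-62 replicates (SD, n = 2), and SK-Mel-103 again lay below both replicates. The UACC-62 values of IER2 (3.25 and 3.08) lay below both of JUND (4.73 and 3.77).

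Unlike JUND, IER2 was listed almost entirely in its 3′ UTR, which held 97.2%, 99.6% and 99.6% of its IP reads and all 8 common peaks. The 3′ UTR likewise held 96.7%, 100% and 100% of its input reads in listed bins. The few coding bins of IER2 held 25, 5 and 4 IP reads over 3, 0 and 0 input reads. The common peaks ran from chr19:13265001 to chr19:13265680 and held 507, 466 and 424 IP reads over 83, 46 and 35 input reads. The strongest bin, 55 nt from the 3′ end of the gene, held 91, 91 and 83 IP reads over 10, 6 and 3 input reads. The GU-rich bin printed above held 69, 73 and 52 IP reads over 7, 7 and 3 input reads, and the second bin, with no marked stretch, held 93, 68 and 68 over 10, 7 and 8. The 2 sites therefore had overlapping read numbers. Pearson's r of IP reads over shared bins was 0.91, 0.91 and 0.89 for the 3 pairs of samples (41, 40 and 40 bins). Within a sample, r between the IP and the input reads of IER2 bins was 0.68, 0.73 and 0.61. Another gene lay on the opposite strand at 21 of the 54 IER2 bins, and all IP reads counted here were on the IER2 strand.

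**Figure D2:**
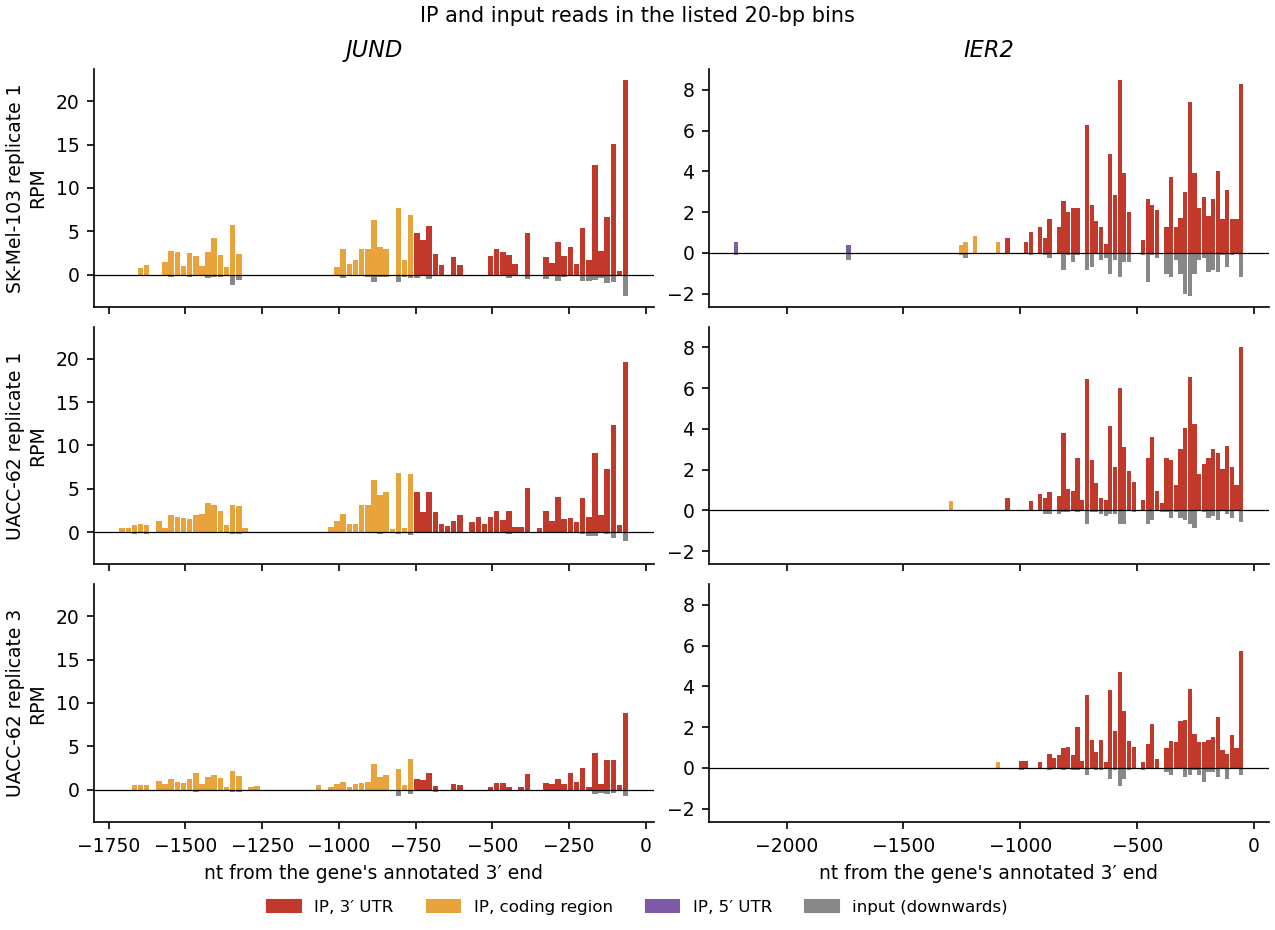
Reads per 1000000 (RPM) of the IP (upwards, coloured by region) and of the input (downwards, grey) in every listed 20-bp bin of JUND and IER2, against distance from the annotated 3′ end of the gene. The peaks stand at the same places in the 3 samples, in the 3′ UTR and coding region of JUND and in the 3′ UTR of IER2.

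Both mRNAs are rich in G and C, with 70.1% of exon bases in JUND (above 99.6% of genes) and 61.7% in IER2 (above 90.5%). Across the 10306 genes, which share libraries and are not independent replicates, Pearson's r between exon GC content and log2 IP over input was −0.01, −0.01 and 0.02. The 906 genes over 60% GC had medians of −0.02, −0.33 and −0.06, with upper quartiles of 0.62, 0.58 and 0.89. The log10 length of the annotated 3′ UTR gave r of 0.32, 0.34 and 0.35, and the 3′ UTRs of JUND (750 nt) and IER2 (1056 nt) are 2 of the shorter ones of the 10, which reach from 503 nt (JUNB) to 4872 nt (FOSL2). Whether composition or 3′ UTR length bears on the values of JUND and IER2 was not tested.

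JUNB, an AP-1 subunit that often opposes JUN, was above input in every sample, but on few reads. It had 30, 109 and 101 IP reads over 8, 49 and 18 input reads in 4, 17 and 16 of its 91 exonic bins. These bins were listed for their IP reads, a choice that favours values above 0 and that the interval does not cover. Enrichment of JUNB was 1.41 on the log2 scale for SK-Mel-103 (0.37 to 2.87) and 1.35 ± 0.53 over the UACC-62 replicates (SD, n = 2), and the SK-Mel-103 value lay between the UACC-62 values of 0.98 and 1.73. No JUNB bin held more than 22 IP reads, and thus none reached the read number of a peak. Its mean over the 3 samples exceeded that of 89.6% of genes.

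JUN, the founding AP-1 subunit, differed between the lines in the reads of its listed bins and in IP over input. It had 1484 IP and 1340 input reads in 105 bins of SK-Mel-103, but 94 and 37 reads in 13 bins of UACC-62 replicate 1 and 40 and 8 reads in 7 bins of replicate 3. In RPM, that is reads per 1000000 reads of the same kind in the listed bins, the input of JUN was 159 for SK-Mel-103 and 2.27 ± 1.94 over the UACC-62 replicates (SD, n = 2), a ratio of 69.8. Against replicates 1 and 3 alone the ratio was 43.5 and 176. Its IP was 135 against 5.53 ± 3.91, a ratio of 24.5 (16.3 and 48.9 against each replicate). These RPM values are sums over 105 listed bins in SK-Mel-103 and over 13 and 7 in UACC-62. They therefore also reflect how many bins passed. Over the 4 JUN bins listed in all 3 samples, input was 88, 11 and 6 reads. The log2 enrichment of JUN was −0.23 in SK-Mel-103 (−0.33 to −0.12), 1.16 in UACC-62 replicate 1 (0.62 to 1.78) and 1.49 in replicate 3 (0.51 to 2.93). The difference of SK-Mel-103 from the UACC-62 mean was −1.55, and 1.62% of genes had a lower one, the median over all genes being 0.26.

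The value of JUN in SK-Mel-103 changed with the bins and with the scaling that were used, and was 0.15 without scaling. The 89 bins listed in SK-Mel-103 only held 1065 IP and 1017 input reads, at a log2 of −0.31. In the 4 bins listed in all 3 samples, JUN had 187, 35 and 25 IP reads over 88, 11 and 6 input reads, which gave log2 values of 0.70, 1.43 and 1.195. SK-Mel-103 remained lowest there, but above 0, and how far the choice of listed bins sets the difference between the lines was not tested. Within SK-Mel-103, the 39 3′ UTR bins of JUN had a log2 of −0.02 and all 7 of its peaks, the 31 bins of the 5′ UTR had −0.17 and the 35 coding bins −0.63. The strongest JUN bin, the one printed above, held 80, 11 and 5 IP reads over 27, 5 and 1 input reads.

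**Figure D3:**
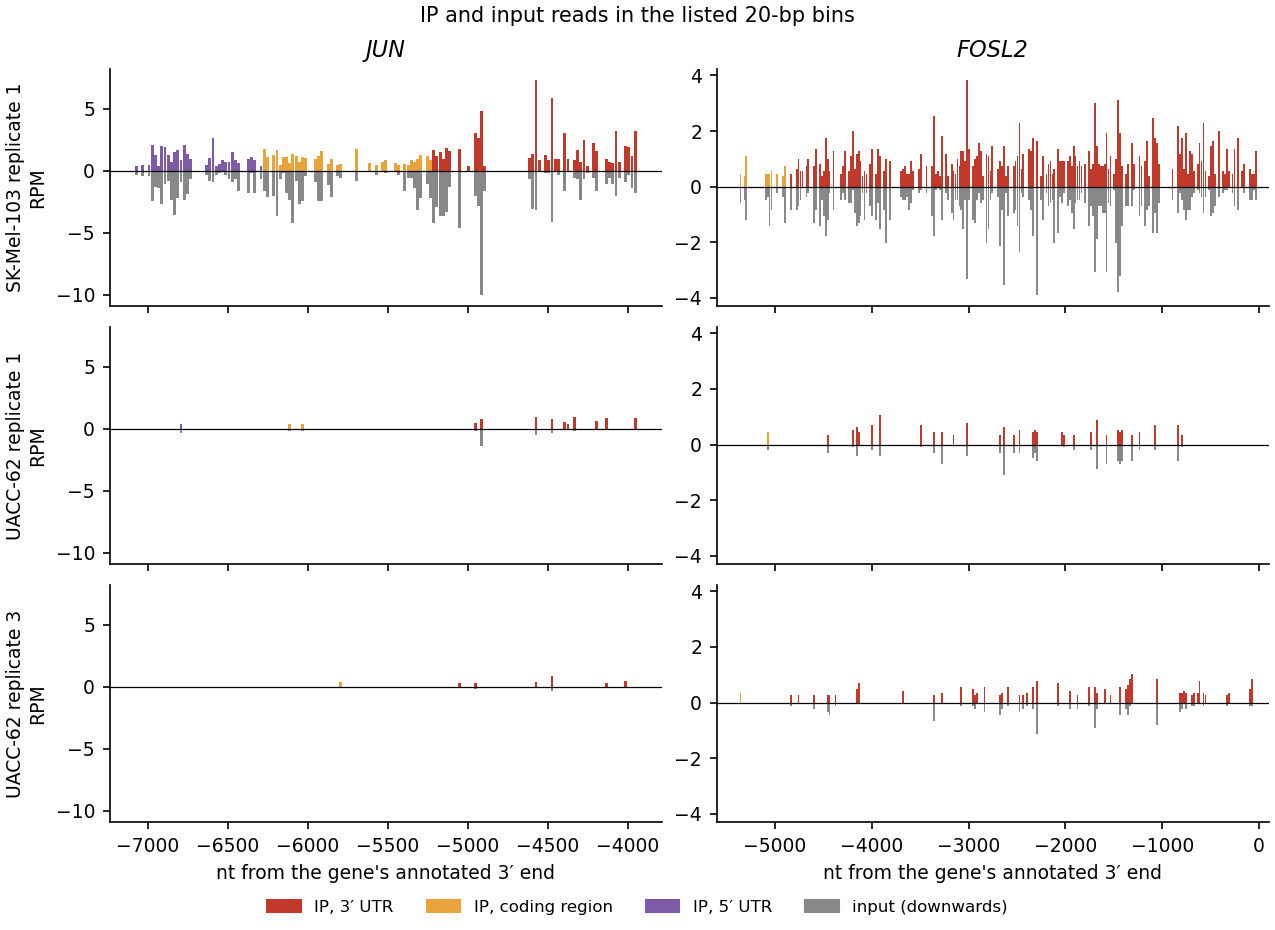
RPM of the IP (upwards, coloured by region) and of the input (downwards, grey) in the listed 20-bp bins of JUN and FOSL2, against distance from the annotated 3′ end of the gene. For JUN that end lies beyond its 3′ UTR of 1287 nt, and the nearest listed 3′ UTR bin is 3953 nt from it. For FOSL2 the last 5600 nt are shown and 8 bins of SK-Mel-103 lie outside. SK-Mel-103 has 105 JUN and 192 FOSL2 bins with input reads of similar height to the IP, and UACC-62 has few bins of either gene.

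FOS, the immediate early partner of JUN, was listed in UACC-62 only. It had 94 and 75 IP reads over 68 and 33 input reads in 15 and 13 bins of replicates 1 and 3, and no bin in SK-Mel-103. The enrichment of FOS averaged 0.38 ± 0.11 on the log2 scale (SD, n = 2), with intervals that reached below 0 in both replicates (−0.16 to 0.78 and −0.12 to 1.12). Since a bin needed at least 4 IP reads, the empty list of SK-Mel-103 gives no log2 value and no bound for the whole mRNA.

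FOSL2, a FOS relative induced later after a stimulus, was slightly above input, and most so in UACC-62. It had 2028, 193 and 340 IP reads over 1347, 123 and 96 input reads. For SK-Mel-103 the log2 enrichment was 0.22 (0.12 to 0.32) and for UACC-62 it was 0.80 ± 0.44 (SD, n = 2). Of its IP reads 94.8%, 97.4% and 98.5% lay in the 3′ UTR, the longest of the 10. It had 3 peaks in SK-Mel-103 and none in UACC-62, where its highest bins held 12 and 15 reads. In the 13 bins listed in all 3 samples its log2 values were −0.15, 0.11 and 0.60, so that the sign in SK-Mel-103 turned there.

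FOSL1, the FOS relative linked to invasive and dedifferentiated tumour cells, was below input in every sample. It had 459, 72 and 22 IP reads over 826, 95 and 25 input reads. The log2 of IP over input was −1.22 for SK-Mel-103 (−1.39 to −1.06) and −0.71 ± 0.23 for UACC-62 (SD, n = 2). The share of genes with a lower value was 8.30% in SK-Mel-103, but 45.7% and 29.0% in UACC-62 replicates 1 and 3. The interval of UACC-62 replicate 3, which had 5 bins only, ran from −1.78 to 0.0037. The bin with the most IP reads over the 3 samples, printed above, held 25, 8 and 5 IP reads over 73, 23 and 9 input reads. FOSL1 was the only one of the 10 genes without a GRE within 2 mismatches in its 3′ UTR.

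FOSL1 and FOSL2 shared with JUN a far higher level over the listed bins in SK-Mel-103. Input levels in RPM were 97.7 in SK-Mel-103 against 6.08 ± 4.62 in UACC-62 for FOSL1 (ratio 16.1, or 10.5 and 34.8 against replicates 1 and 3 alone) and 159 against 11.4 ± 0.93 for FOSL2 (ratio 13.9; SD, n = 2 for both). Their IP levels differed less, with ratios of 10.6 (6.59 and 27.5 against each replicate) and 9.12. These levels are sums over 42, 14 and 5 listed bins for FOSL1 and over 192, 33 and 53 for FOSL2. In the bins listed in all 3 samples, input was 94, 25 and 13 reads for FOSL1 (2 bins). For FOSL2 (13 bins) it was 197, 57 and 36 reads.

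ATF3, a stress-induced AP-1 partner, was close to absent from the lists. It had 7 IP over 2 input reads in 1 bin of SK-Mel-103, no bin in UACC-62 replicate 1, and 31 over 14 reads in 6 bins of replicate 3. The log2 values of 1.04 and 0.40 had intervals from −0.96 to 4.74 and from −0.50 to 1.47, and enrichment was therefore not detectable at this depth.

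MYC was further below input in UACC-62 than in SK-Mel-103. It had 79, 257 and 210 IP reads over 68, 468 and 296 input reads. On the log2 scale this was −0.16 for SK-Mel-103 (−0.64 to 0.33) and −1.11 ± 0.12 for UACC-62 (SD, n = 2), and the upper ends of the UACC-62 intervals were −0.80 and −0.93. In the 6 bins listed in all 3 samples the values were −0.29, −1.50 and −1.74. No MYC bin held more than 29 IP reads, and the value was below 0 in both its 3′ UTR (−1.19 and −1.34) and its coding region (−0.86 and −0.90) in UACC-62.

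MYC input was higher in UACC-62, at 39.7 ± 9.05 RPM (SD, n = 2) against 8.04 in SK-Mel-103. Its IP levels were 18.6 ± 5.75 and 7.21 RPM, so that both UACC-62 replicates exceeded SK-Mel-103 in IP and in input. These are sums over 12, 34 and 25 listed bins. In the 6 bins listed in all 3 samples, MYC input was 48, 199 and 153 reads.

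EGR1, a zinc finger transcription factor induced by growth signals, was near its input in UACC-62 and nearly unlisted in SK-Mel-103. It had 4, 101 and 121 IP reads over 2, 66 and 94 input reads, the first from a single bin. The log2 enrichment of EGR1 was 0.36 for SK-Mel-103 (−2.18 to 4.09), 0.45 in UACC-62 replicate 1 and −0.34 in replicate 3, with mean 0.06 ± 0.56 (SD, n = 2). All EGR1 reads lay in the 3′ UTR.

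**Figure D4:**
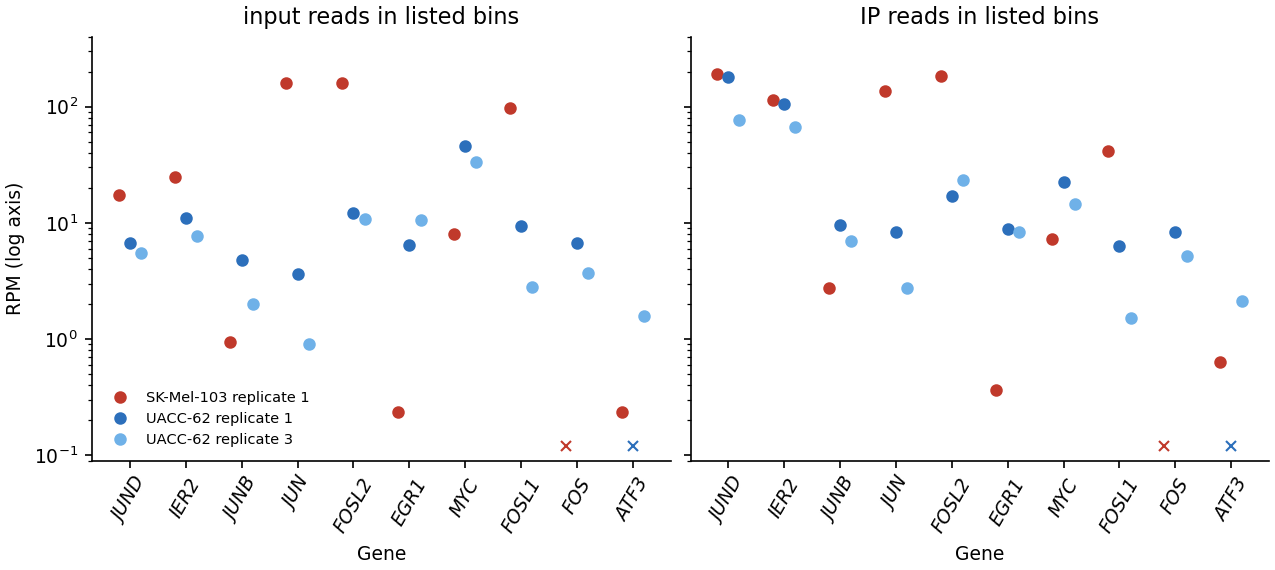
RPM in the input (left) and the IP (right), summed over the listed bins of each gene on a log axis, with points for the 3 samples and crosses at the foot for genes without a listed bin. The number of listed bins of a gene differs between the samples. JUN, FOSL1 and FOSL2 are highest in SK-Mel-103, MYC, EGR1 and FOS in UACC-62, in input as in IP.

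Over the 8 genes with bins in all 3 samples, log2 IP over input in SK-Mel-103 lay below both UACC-62 replicates for 5 (JUND, IER2, JUN, FOSL1 and FOSL2), where 24.2% of such genes did, and above both for MYC alone, where 53.7% did. The same 5 genes had a higher input RPM in SK-Mel-103 than in both UACC-62 replicates, against 46.6% of such genes, and a higher IP RPM, against 52.8%. Since input is the denominator of log2 IP over input, these counts are not independent of the log2 counts. MYC, JUNB and EGR1 had a lower input RPM in SK-Mel-103, against 37.8%, and a lower IP RPM, against 27.9%. Between the UACC-62 replicates, log2 IP over input was higher in replicate 3 by a median of 0.22 over all genes, with an SD of 0.60.

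In the order of the means over 3 samples (JUND 3.99, IER2 2.84, JUNB 1.37, JUN 0.81, FOSL2 0.61, EGR1 0.16, MYC −0.79 and FOSL1 −0.88) not all neighbours were apart. JUND lay above IER2, and IER2 above JUNB, in every sample. JUNB and JUN overlapped in UACC-62, JUN lay above FOSL2 in UACC-62 and below it in SK-Mel-103, and EGR1 lay above FOSL2 in SK-Mel-103 on 4 reads. MYC lay above FOSL1 in SK-Mel-103 and below it in both UACC-62 replicates.

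Most reads of the 10 genes lay in 3′ UTRs, in the IP and in the input. The 3′ UTR share of IP reads was 74.5%, 74.3% and 77.3%, against 71.4%, 77.4% and 75.6% over all protein-coding genes. The input share was 70.5%, 70.0% and 81.9% for the 10 genes, but 53.5%, 53.8% and 55.8% for all genes. The coding bins of the 10 genes together stood above input (log2 0.48, 1.56 and 1.69), but JUND supplied most of their IP reads, with 820 of 1506, 838 of 1064 and 527 of 671. Without JUND the coding bins stood below input (−0.55, −0.54 and −0.26), as did those of all protein-coding genes (−0.95, −1.35 and −1.03).

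The motifs of mRNA decay were widespread in the 3′ UTRs of the 10 genes, whichever way IP over input pointed. AUUUA was found in 9 of them (all but IER2) and in 69.5% of all 3′ UTRs of protein-coding genes, and the longer UUAUUUA in 4 and 31.8%. UGUUUGU occurred in 7, against 27.0%, and UGUGUGU in 4, against 27.9%. GREs, taken as the 11-nt elements that extend each of these 2 repeats by 4 nt, were found within 2 mismatches in 9, against 55.3%, and without mismatch in IER2, JUN and JUND, against 7.65%. Per kb of 3′ UTR, AUUUA (1.97) and UUAUUUA (0.255) were less dense in the 10 genes than over all genes (2.22 and 0.287). UGUUUGU (0.827), UGUGUGU (0.700) and GREs within 2 mismatches (1.34) were denser than over all genes (0.217, 0.456 and 0.839). The 3 genes with a perfect GRE had mean log2 values of 2.84 (IER2), 0.81 (JUN) and 3.99 (JUND), and FOSL1, without any, had −0.88. JUN lay below 0 in SK-Mel-103 (−0.23) and above it in both UACC-62 replicates (1.16 and 1.49). The other genes with bins in all 3 samples, whose GREs all had 1 or 2 mismatches, had 1.37 for JUNB, 0.61 for FOSL2, 0.16 for EGR1 and −0.79 for MYC, which had 2 such GREs. All motifs were searched on the transcript strand, where AUUUA lies within UUAUUUA and both 7-mers can lie within a GRE, and a match is no evidence of binding. The 3′ UTR of a gene joined those of all its annotated coding transcripts, and parts of it can be coding in another transcript.

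Bins close to a motif were few. Within 20 nt of a listed 3′ UTR bin, AUUUA was present for 9.38%, 8.47% and 9.24% of the bins of the 10 genes, against 12.7%, 12.5% and 12.7% of those of all genes. A GRE within 2 mismatches was present for 6.88%, 9.60% and 10.3%, against 5.41%, 5.65% and 5.36%. In IER2, bins near a GRE had log2 values of 2.63, 3.50 and 3.40 and the other 3′ UTR bins 2.15, 3.20 and 3.02. In JUND these were 3.16, 5.46 and 4.28 near a GRE, where input had only 9, 1 and 1 reads, and 3.50, 4.60 and 3.50 elsewhere, and JUN, with its GRE bin in SK-Mel-103 only, had 0.40 on 11 IP reads.

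Other genes of the growth response also lay on both sides of 0. Of 39 further immediate early genes, 26 had bins in all 3 samples and 10 had a common peak (25.6%, against 8.74% of all genes). Enrichment was above 0 in all 3 samples for 10 of the 26 and below 0 for 7, where 31.7% and 43.1% of genes with bins in all 3 samples were, and the median of the mean was −0.02 against −0.18. By a rule on the means of genes with at least 100 IP reads in every sample, the highest were IER5 (2.04), a relative of IER2, the ERK phosphatase DUSP5 (1.85) and the pseudokinase TRIB1 (1.47), and the lowest were DUSP4 (−0.77), another phosphatase, and the antiproliferative gene BTG1 (−1.09).

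Over all protein-coding genes 8.74% had a common peak, and over those with bins in all 3 samples 17.1% did. Of genes with bins in all 3 samples, 31.7% were above 0 and 43.1% below 0 in all 3, with a median of −0.18. Among 17 further AP-1 and CREB family genes, 13 had bins in all 3 samples, 3 had a common peak (17.6% of the 17), 5 were above 0 and 3 below 0 in all 3, and the median was 0.18. The highest were MAFG (2.43), a small MAF protein, ATF7 (1.09) and ATF2 (0.45), and the lowest were ATF6 (−0.37) and ATF4 (−1.41), which both act in the unfolded protein response. Among 13 partners and relatives of MYC, 11 had bins in all 3 samples, 2 had a common peak (15.4% of the 13), 5 were above 0 and 4 below 0 in all 3, and the median was 0.24. The highest were the MAX-binding repressors MXD4 (1.88) and MXD1 (1.32), with MLXIP (1.38) between them, and the lowest were MGA (−0.34) and MLX (−1.33). MAX itself, the partner of MYC, which was named outside the rule after its values were seen, had 0.98, 1.03 and 1.41 and 11 common peaks, while MYC was below 0 in the same samples, in SK-Mel-103 within its counting error.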

How the data were processed

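Lists of CELF1 RIP-Seq bins were analysed for 3 IP samples. According to the submitters' processing notes, TopHat2 2.0.4, Bowtie 0.12.7 and SAMtools 0.1.16 were used, and reads were aligned to GRCh37. The authors ran Piranha in 20-bp bins, with the matching input of each IP as covariate. In the deposited lists, read counts are IP reads in whole numbers, not normalized. A p-value stands beside them as deposited, and whether it is corrected is not stated in the lists. The ratio deposited by the authors in the last column is the input of the bin over a fixed read number, with 0.01 for no input. Whole input reads were recovered from its smallest step, no value lying more than 0.0188 reads from a whole number.

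The transcript strand was taken as the reverse of the listed strand, on which all 14595 IP reads of the 10 genes fell, with none on the other. Genes, exons and regions came from GENCODE version 44 mapped to GRCh37, a bin being placed by its centre in 3′ UTR, coding region or 5′ UTR, in that order. No listed bin lay beyond a chromosome end of the genome used. Reads were summed over the listed bins of a gene, divided by the column total, and compared as log2 with a pseudocount of 1 read. Exact 95% Clopper-Pearson intervals cover counting error only, since PCR copies cannot be told from separate molecules. They also leave out the choice of bins by their IP reads. The lines were not tested against each other, since SK-Mel-103 had 1 IP sample, and IP was not tested against input, since bins were listed for their IP reads.

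The genes and gene lists were chosen with earlier results of these data known. All 10 genes are named, and of each other list the 3 highest and 2 lowest by mean log2 IP over input among genes with at least 100 IP reads in every sample, together with CELF1 and cell type markers. Alternatives changed the read filter, p-value threshold, exons, strand, scaling, pseudocount, region order, mismatches, motif window and replicates. The scripts were tested on simulated data. The tools were Python 3.11.15 with pandas 2.3.3, numpy 2.4.6, scipy 1.17.1 and matplotlib 3.10.9.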

Additional observations from a re-analysis of the deposited data

Results flagged for a closer look

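JUN stood out because its log2 IP over input lay on opposite sides of 0 in the 2 lines, at −0.23 in SK-Mel-103 and at 1.16 and 1.49 in UACC-62 replicates 1 and 3. The difference was not tested, since SK-Mel-103 had 1 IP sample. JUN had 1484 IP over 1340 input reads in SK-Mel-103, but only 94 over 37 and 40 over 8 in UACC-62, and in the 4 bins listed in all 3 samples its values were 0.70, 1.43 and 1.195, all above 0.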

How the results depend on the processing

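Of the 10 genes, 2 had a common peak. There were 7 when every listed bin counted as a peak, 1 (JUND) with more than 100 IP reads, and 0 when the listed strand was taken as the transcript strand, while the other alternatives kept the count within 1.5 times. Genes above 0 in all 3 samples fell from 4 to 2 with bins of more than 30 IP reads only, since few genes have such bins. JUN in SK-Mel-103 turned from −0.23 to 0.29 with these bins, to 0.70 with bins common to the 3 lists and to 0.15 with raw reads, and FOSL2 in SK-Mel-103 turned from 0.22 to −0.036 and −0.15 with the first 2 settings. Without scaling, every log2 value shifts by 0.37, 0.16 and 0.70, and MYC in SK-Mel-103 becomes 0.21. The UACC-62 value of EGR1 is −0.34 without replicate 1. The 3′ UTR share of IP reads in SK-Mel-103 was 80.7% with bins of more than 30 reads and 72.6% with the coding region placed first, in UACC-62 replicate 1 it was 72.8% with the coding region first, and in replicate 3 it was 83.7% with bins of more than 30 reads. With every listed bin as a peak, 23 other immediate early genes, 11 AP-1 partners and 10 MYC partners had a common one, and 8 AP-1 partners were above the median of all genes in all 3 samples. GREs with at most 1 mismatch were found in 5 of the 10 3′ UTRs and without mismatch in 3. Searched in the bin alone, AUUUA was present in 9, 3 and 5 bins and a GRE in 4 bins of each sample. No paired analysis was possible because the results come from no test: bins were listed for their IP reads with input as covariate, so no test of IP against input was run on them, and each log2 value already pairs an IP with the input of its own replicate.

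Only listed bins were available, so input outside them is unknown, values of JUNB, FOS, ATF3 and EGR1, and of JUN and FOSL1 in UACC-62, rest on few reads, and nothing in SK-Mel-103 has a replicate.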
